A study of Homo sapiens with 12 samples.

Results

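The mitosis and spindle genes are 49 genes whose products drive chromosomes through cell division, taken by symbol from the count table, which lists 26334 symbols. All 49 were found, and all were among the 12032 genes that averaged 10 or more counts over the libraries, so every one was tested. The lowest count of any of these genes in a single library was 115 (CENPA).

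Ewing sarcoma cells of the A673 line, under the sample name shA673-1c, were treated with 5 µM actinomycin D, and poly(A) RNA was sequenced after 0, 1, 2 and 4 h in 3 biological replicates, giving 12 libraries. All wells were kept in the same medium with blasticidin and zeocin (spelled zeocyn in the labels), and none of the 12 libraries is from untreated cells at a later time, so time in culture and time in the drug cannot be told apart. All 12 libraries also carry the label CTL in their titles. What this label and the prefix and suffix of the sample name stand for is not given in the sources used here. Time courses of this kind ask how fast each transcript is lost once its synthesis is stopped.

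Actinomycin D intercalates into DNA and stops RNA polymerases. A transcript that is no longer made then declines at the pace of its decay. Mitotic transcripts are made mainly in G2 and M phase under B-MYB and FOXM1, and their proteins condense the chromosomes, build the bipolar spindle, hold the checkpoint until every kinetochore is attached, and then cut the cell into daughters. The same transcripts are widely used as proliferation markers of tumours. In these bulk libraries, fewer cells in mitosis and less RNA per cell cannot be told apart.

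Library totals ranged from 9147018 to 11194705 counts. The 49 genes together took 0.888%, 0.950% and 0.987% of the counts in replicates 1, 2 and 3 at 0 h and 0.686%, 0.758% and 0.757% at 4 h. Levels below are in CPM, the counts scaled by library size and TMM factors, which set the bulk of the genes as level, and slopes are log2 changes per hour fitted to all 12 libraries with edgeR. A slope therefore tells how a transcript moved relative to most others, and "fell" and "rose" are used of slopes with a Benjamini-Hochberg adjusted p below 0.05 over all tested genes. CD99, 1 of 8 Ewing sarcoma markers, was listed at 0 in every library. How its reads were counted could not be checked, so this 0 does not show that the transcript was absent. The other 7 averaged 10 counts or more. Of 10 markers of other cell types only COL1A1 (mean 36090 counts) and DES (16.4) passed that mean, and PTPRC, CD3E, CDH1, CDH5 and MYOD1 had means below 1. The short-lived MYC transcript fell from 134 ± 11.5 CPM to 8.36 ± 2.75 CPM (SD, n = 3) between 0 and 4 h, while GAPDH and ACTB rose relative to the scaling, with slopes of 0.15 and 0.12.

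Part of these transcripts hold a short motif in the 3′ UTR. TGTANATA is the core that Pumilio proteins bind, and TTATTTATT is the nonamer of AU-rich elements, which holds the pentamer ATTTA. The stretches below are shown because they lie in transcripts that fell most (KIF18A, NDC80, TTK and CENPE) and, for contrast, in a partner of NDC80 that was not called (NUF2) and in TOP2A. They are 30 bases each of GRCh38, read on the gene's strand of the GENCODE 44 transcript, with the motif in capitals.
KIF18A, chr11:28020705-28020734, minus strand: taatgtacaagTGTAAATAtatgtgcccat
KIF18A, chr11:28020678-28020707, minus strand: cataaaatcatTGTAAATAttatttagtca
NDC80, chr18:2616581-2616610, plus strand: aatgttgatcaTGTATATAtatccatagtg
TTK, chr6:80042369-80042398, plus strand: acttatggcacTGTATATAttgtagacttg
TTK, chr6:80042478-80042507, plus strand: ctaaaaaacttTGTAAATAaagttttgtgg
CENPE, chr4:103105968-103105997, minus strand: ttgaattgttTTATTTATTtgtatattttg
NUF2, chr1:163355686-163355715, plus strand: ctgccccttgtTGTAAATAgtttgagtaaa
TOP2A, chr17:40388584-40388613, minus strand: atcaacgttttTGTAAATAtttactatgtt

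TGTANATA occurred in the 3′ UTR of 24 of the 49 transcripts, against 31.7% of 10817 tested coding genes with a 3′ UTR. The members' 3′ UTRs were the shorter ones, with a median of 680 bases against 1417. The motif was present in 14 of the 24 members that fell, in 10 of the 20 that were not called and in 0 of the 5 that rose. Across all tested coding genes it was present in 45.8% of those that fell and 16.7% of those that rose, so the share of 58.3% among members that fell stands beside a background that leans the same way. AURKA, PLK1 and CENPE fell without a match. The pentamer ATTTA was found in 71.4% of members and 75.1% of all tested coding genes, and TTATTTATT was found in 4 members, which were ARHGAP11A, BUB3, CENPE and PRC1. A match is a run of letters, and whether a protein binds there was not measured.

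Most of the promoters share a motif. TTTGAA and TTCGAA are the letters of the cell cycle genes homology region (CHR), where the DREAM and B-MYB complexes dock, and CCAAT is the box bound by NF-Y. Promoters were those of the RefSeq promoter table (GRCh38.p14), with 250 bases before and 50 after the start and both strands searched. AURKA, TTK, BIRC5, TPX2, RACGAP1 and BUB3 had no entry there. The members with the lowest slope (AURKA) and the highest (BIRC5) were thus not searched. The other 43 of the 49 genes had an entry. A CHR hexamer was present in 35 of these 43 (81.4%) against 15.5% of 9155 tested genes with an entry, CCAAT in 34 (79.1%) against 43.8%, and both kinds in 30 (69.8%) against 8.60%. Members that moved in opposite directions carried the hexamer, as these 30-base stretches from upstream of the start show, with the hexamer in capitals: the transcripts of KIF18A and PLK1 fell, and those of KIF4A and PRC1 rose.
KIF18A, chr11:28108157-28108186, minus strand: gctgaggaaagtggcttgggTTTGAAtatt
PLK1, chr16:23678848-23678877, plus strand: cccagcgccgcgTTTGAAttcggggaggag
KIF4A, chrX:70290058-70290087, plus strand: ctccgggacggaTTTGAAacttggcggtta
PRC1, chr15:90994538-90994567, minus strand: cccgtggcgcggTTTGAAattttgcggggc

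The 49 transcripts did not move as a block. Over the 4 h, 24 fell, 5 rose and 20 were not called, where 32.1% of all tested genes fell and 30.7% rose. With the replicate block 27 fell and 7 rose, where 34.8% of all tested genes fell and 36.2% rose. The median slope of the 49 was -0.045 log2 per hour, against 0.0093 over all tested genes. The quartiles of their slopes were -0.15 and 0.010, against -0.13 and 0.089 over all genes, and 3 members (6.12%) had a slope below -0.25, as did 14.8% of all genes. Only 1 member, BIRC5, was above 0.1, as were 21.3% of all genes. The plot of slopes by role shows both a tail of members that fell and a tight set near 0. Beside the counts by role below stand the same shares of all tested genes, 32.1% fallen and 30.7% risen.

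**Figure D1:**
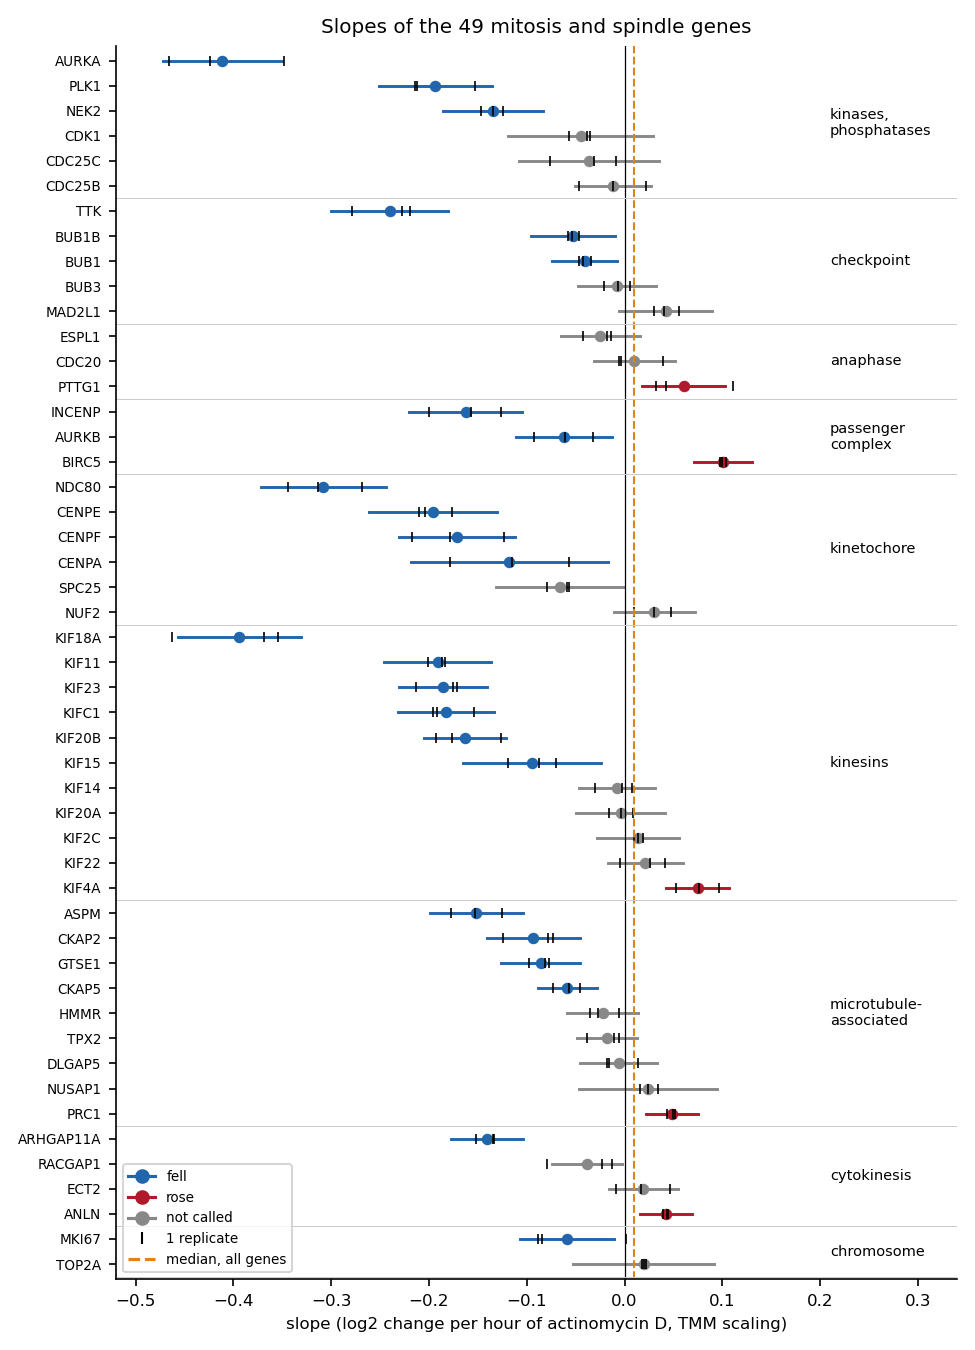
Slope in log2 change per hour (horizontal axis) of each of the 49 genes, grouped by role. Points and bars are the edgeR slope and its 95% confidence interval, ticks the slopes of single replicates, and the dashed line the median of all tested genes (0.0093). AURKA, KIF18A and NDC80 lie farthest to the left, and BIRC5 lies farthest to the right.

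Of the 24 members that fell, 23 had a slope below 0 in each of the 3 replicates fitted alone, the exception being MKI67. Taken as -1 divided by the slope, and so relative to the scaling, the half-life of the 24 had a median of 6.38 h and ran from 2.43 h (AURKA) to 24.6 h (BUB1). It was below 4 h for 3 members, below 8 h for 15 and above 12 h for 5. Leaving out any single library or replicate number, in 15 ways, never removed the call of 18 of the 24, but AURKB, BUB1, BUB1B, CENPA, KIF15 and MKI67 each lost it in at least 1 of them. Among the members that rose, ANLN and PTTG1 lost the call in this way. When GAPDH and ACTB counts set the scale instead, this lowered the median slope of all genes to -0.13 and that of the members to -0.18. Then 48 members were lower and 0 higher, where 7729 of all tested genes were lower and 112 higher. The rises thus hold only relative to the bulk of the genes.

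Of the 6 mitotic kinases and phosphatases, 3 fell (AURKA, PLK1 and NEK2), and CDK1 and the CDC25 phosphatases were not called. AURKA, the Aurora kinase of centrosomes and spindle poles on chromosome 20 (GRCh38, 56369389 to 56392337), was at 102, 114 and 107 CPM at 0 h, at 89.0, 107 and 92.9 at 1 h, at 66.7, 68.8 and 69.5 at 2 h, and at 39.8, 37.2 and 30.2 at 4 h. All 3 libraries at 4 h lay far below all 3 at 0 h, with 33.2% of the 0 h level left. The slope was -0.41 (standard error 0.029, adjusted p = 6.91e-09, edgeR), the lowest of the 49, and 850 of the 12032 tested genes had a slope as low or lower. Its half-life was 2.43 h (95% confidence interval 2.12 to 2.85 h).

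PLK1, the Polo kinase that matures centrosomes and primes mitotic entry, was at 159, 194 and 159 CPM at 0 h and at 165, 193 and 161 CPM at 1 h. It then dropped to 146, 154 and 131 CPM at 2 h and to 107, 111 and 91.9 CPM at 4 h. The first hour thus left PLK1 where it was, within the spread of the replicates, and the loss came later, with a slope over the whole course of -0.19 (standard error 0.027, adjusted p = 1.25e-05, edgeR). NEK2, which splits the centrosomes, also fell (slope -0.13, half-life 7.44 h).

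CDK1, the kinase whose activity defines mitosis, differed more between replicates than between times. Its levels in replicates 1, 2 and 3 were 189, 253 and 262 CPM at 0 h, 176, 201 and 233 CPM at 1 h, 177, 213 and 250 CPM at 2 h, and 168, 204 and 230 CPM at 4 h. The times overlapped, and the slope of -0.045 was not called (adjusted p = 0.277, edgeR). A block for the replicate number left the slope at -0.045 but brought it past the threshold (adjusted p = 0.00927, edgeR). The phosphatases that activate CDK1 were not called either, with slopes of -0.036 for CDC25C and -0.012 for CDC25B. CDC25C overlaps FAM53C on the opposite strand, which had 311% as many counts, and how the counting used strand is not given in the sources used here.

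CCNB1 encodes cyclin B1, the partner of CDK1, and is not among the 49. It was at 263, 335 and 284 CPM at 0 h, 272, 298 and 278 at 1 h, 257, 306 and 264 at 2 h, and 225, 251 and 207 at 4 h. The 4 h libraries lay below the 0 h libraries, and CCNB1 fell with a slope of -0.092 (adjusted p = 0.00199, edgeR). CCNA2 (cyclin A2) fell more, with a slope of -0.17, so 2 of the 3 A and B cyclins fell and the third was not called.

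**Figure D2:**
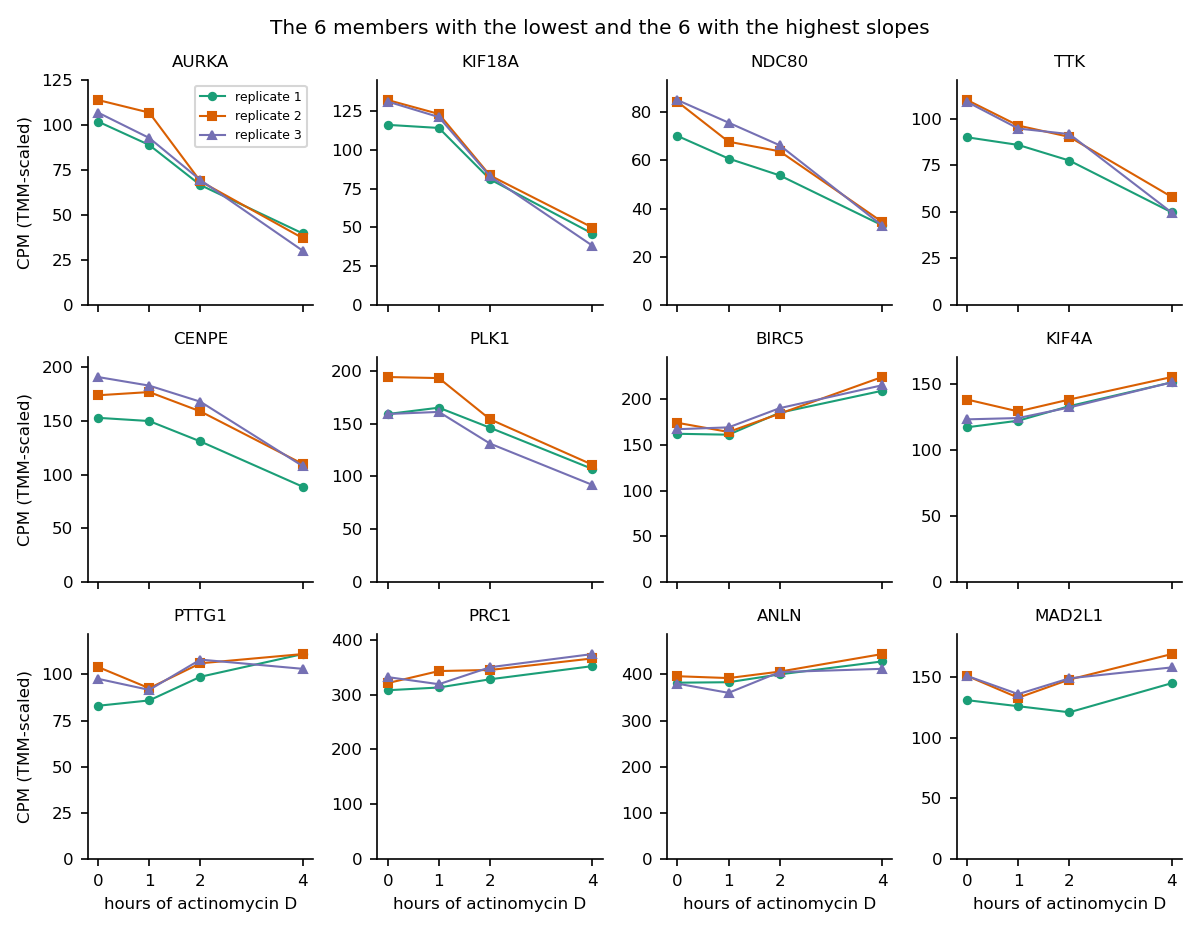
TMM-scaled CPM (vertical axis, from 0) against hours of actinomycin D for the 6 members with the lowest slopes (AURKA to PLK1) and the 6 with the highest (BIRC5 to MAD2L1), with 1 line per replicate. AURKA and KIF18A ended at 33.2% and 35.4% of their 0 h level, whereas BIRC5 ended at 129%.

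Of the 5 spindle checkpoint genes, 3 fell, and they did so at unlike rates. TTK (MPS1), the kinase that starts checkpoint signalling at unattached kinetochores, was at 90.0, 110 and 109 CPM at 0 h, 85.9, 96.3 and 94.7 at 1 h, 77.5, 90.2 and 91.7 at 2 h, and 49.7, 58.0 and 49.6 at 4 h. The 4 h libraries were at 50.9% of the 0 h mean and did not overlap it (slope -0.24, standard error 0.028, adjusted p = 1.57e-06, edgeR). BUB1B (BUBR1) and BUB1, which act downstream of TTK, fell slowly, with half-lives of 19.0 and 24.6 h. Their 95% confidence intervals, 10.5 to 101 h and 13.6 to 132 h, reach far past the 4 h course. BUB3, which carries both to the kinetochore, had a slope of -0.0078 and was not called.

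MAD2L1 (MAD2), the inhibitor of CDC20 that the checkpoint produces, followed a dip and a return. It was at 131, 151 and 151 CPM at 0 h, 126, 133 and 136 at 1 h, 121, 148 and 149 at 2 h, and 145, 169 and 158 at 4 h. The slope of 0.042 was not called (adjusted p = 0.112, edgeR), but 4 h was above 1 h by 0.26 on the log2 scale (adjusted p = 0.0205, edgeR). With the replicate block the slope was called, at an adjusted p of 0.0258 (edgeR).

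None of the anaphase genes fell. CDC20, which activates the anaphase-promoting complex, had a slope of 0.010, and ESPL1 (separase), the protease that opens cohesin, one of -0.025; neither was called. PTTG1 (securin), the inhibitor of separase, was at 83.0, 104 and 97.6 CPM at 0 h, 85.9, 92.5 and 91.6 at 1 h, 98.7, 106 and 108 at 2 h, and 111, 111 and 103 at 4 h. The 4 h and 0 h libraries overlapped at their edges, and the rise (slope 0.060, adjusted p = 0.0157, edgeR) had an adjusted p of 0.175 (edgeR) without replicate 1 and of 0.37 (edgeR) with library totals.

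The 3 genes of the chromosomal passenger complex, which corrects faulty kinetochore attachments and guides cytokinesis, parted. INCENP, the scaffold, fell with a slope of -0.16, from 88.0 ± 12.4 CPM to 58.6 ± 5.28 CPM (SD, n = 3). AURKB, the kinase, was at 71.6, 77.9 and 79.5 CPM at 0 h, 64.6, 77.5 and 79.0 at 1 h, 65.6, 65.9 and 78.9 at 2 h, and 59.2, 61.6 and 72.8 at 4 h. These groups overlapped at 4 h and 0 h, and the slope of -0.062 was just past the threshold (adjusted p = 0.0285, edgeR).

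BIRC5 (survivin), another subunit, which brings the complex to the centromere, was the member that rose most. It was at 162, 174 and 167 CPM at 0 h, 161, 164 and 169 at 1 h, 185, 184 and 190 at 2 h, and 209, 224 and 215 at 4 h. Every library at 4 h was above every library at 0 h. The slope of 0.10 (standard error 0.014, adjusted p = 9.93e-06, edgeR) was nearly alike in the 3 replicates, at 0.10, 0.10 and 0.098. With the GAPDH and ACTB scaling it was -0.037 and not past the threshold. Within replicates, INCENP fell short of BIRC5 by 0.26 ± 0.034 log2 per hour (SD, n = 3) and AURKB did so by 0.16 ± 0.034, in 3 of 3 replicates each. Such a difference between genes does not move with the scaling. The pairs of partners were picked after their values were seen and were not tested.

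**Figure D3:**
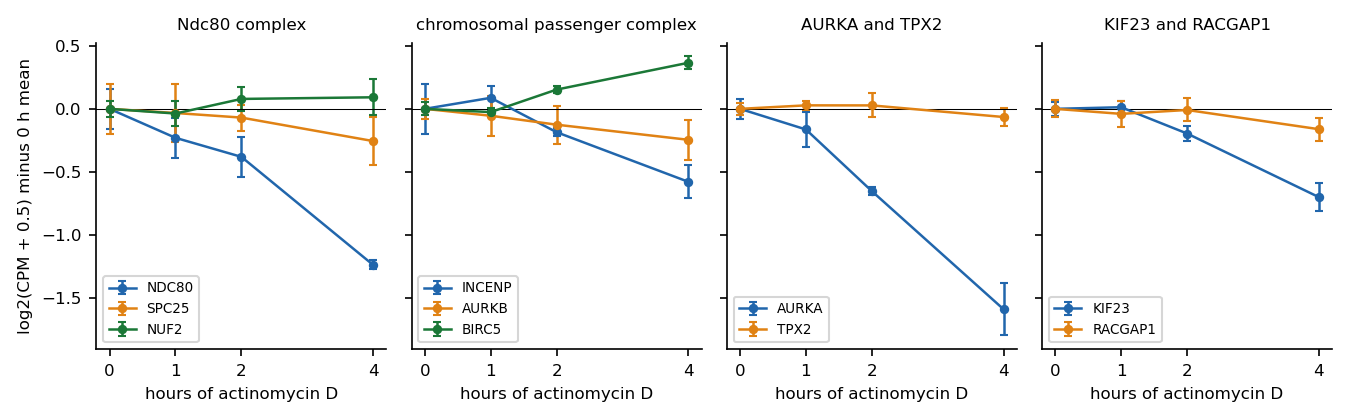
Change in log2(CPM + 0.5) from the mean at 0 h (vertical axis) against hours of actinomycin D, as mean and SD of 3 replicates, for partners of 4 protein complexes. NDC80, INCENP, AURKA and KIF23 drop away from their partners NUF2, BIRC5, TPX2 and RACGAP1.

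Among the 6 centromere and kinetochore genes, 4 fell. NDC80 (HEC1), the subunit that grips the microtubule end, on chromosome 18 (2571557 to 2616635), was at 70.2, 84.4 and 85.1 CPM at 0 h, 60.8, 67.8 and 75.7 at 1 h, 53.8, 63.8 and 66.3 at 2 h, and 33.1, 34.5 and 33.0 at 4 h. The 4 h libraries were nearly equal and less than 50% of each 0 h library. The slope was -0.31 (standard error 0.030, adjusted p = 2.22e-07, edgeR) and the half-life 3.25 h. Its partners in the same complex behaved otherwise: NUF2, with which NDC80 forms a dimer, had a slope of 0.030 and SPC25 one of -0.066, and neither was called. SPC25 was lower with the replicate block (adjusted p = 0.00586, edgeR). NDC80 lay below NUF2 by 0.34 ± 0.057 and below SPC25 by 0.24 ± 0.029 log2 per hour (SD, n = 3), in 3 of 3 replicates. NUF2 overlaps RGS5 on the opposite strand, a gene with 65.5% as many counts.

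CENPE, the kinetochore kinesin that moves chromosomes to the equator, was at 153, 174 and 191 CPM at 0 h, 150, 177 and 183 at 1 h, 131, 159 and 168 at 2 h, and 88.8, 110 and 108 at 4 h. It hardly moved in the first hour and was at 59.3% at 4 h (slope -0.20, standard error 0.031, adjusted p = 3.92e-05, edgeR). CENPF fell alike (slope -0.17, half-life 5.83 h). CENPA, the histone H3 variant of centromeres, had a wider interval on its half-life than CENPF, 4.58 to 57.4 h around 8.48 h. Its call (adjusted p = 0.0398, edgeR) was lost without any of several single libraries, with an adjusted p of up to 0.138 (edgeR). Without all libraries of replicate 2 the adjusted p was 0.30 (edgeR). The same-strand neighbour SLC35F6 overlaps CENPA with 230% as many counts.

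Of the 11 kinesins, 6 fell, 1 rose and 4 were not called. KIF18A, the motor that dampens chromosome oscillations at the plus ends of kinetochore microtubules, on chromosome 11 (28020619 to 28108156), was at 116, 132 and 131 CPM at 0 h, 114, 123 and 121 at 1 h, 80.9, 83.4 and 82.8 at 2 h, and 46.0, 49.9 and 38.2 at 4 h. The first hour took little, and by 2 h all replicates had reached nearly the same level below their starting range. Its slope was -0.39 (standard error 0.030, adjusted p = 1.45e-08, edgeR) and its half-life 2.54 h (95% confidence interval 2.19 to 3.02 h). KIF11 (Eg5), which pushes the spindle poles apart, had a half-life of 5.23 h. KIFC1, which pulls against it, had one of 5.48 h. KIF23, the motor of centralspindlin, had one of 5.38 h and KIF20B one of 6.12 h. For KIF15, the backup of KIF11, the half-life was 10.6 h (95% confidence interval 6.03 to 42.3 h).

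KIF4A, the chromokinesin that shortens the midzone, rose. It was at 117, 138 and 123 CPM at 0 h, 122, 129 and 124 at 1 h, 133, 138 and 132 at 2 h, and 151, 155 and 151 at 4 h. The 4 h libraries lay above the others (slope 0.075, standard error 0.015, adjusted p = 0.000414, edgeR), but with the GAPDH and ACTB scaling the slope was -0.063. KIF4A overlaps PDZD11 on the opposite strand, with 30.5% as many counts. KIF14, KIF20A, KIF22 and KIF2C had slopes from -0.0076 to 0.021 and were not called. KIF20B and KIF20A are related by name and family, yet KIF20B lay below KIF20A by 0.16 ± 0.044 log2 per hour in 3 of 3 replicates. KIF20A shares its locus with CDC23 and BRD8 on the opposite strand.

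Of the 9 genes for spindle microtubule-associated proteins, 4 fell: ASPM, which holds microtubules at the poles (slope -0.15), CKAP2 (-0.093), GTSE1 (-0.086) and CKAP5 (-0.058), the microtubule polymerase. TPX2, which activates AURKA on the spindle, had a slope of -0.018 and was not called, and its level went from 330 ± 10.8 CPM to 316 ± 16.6 CPM (SD, n = 3). AURKA thus lay below its activator by 0.40 ± 0.050 log2 per hour and below AURKB by 0.35 ± 0.076, in 3 of 3 replicates. HMMR, DLGAP5 and NUSAP1 had slopes between -0.023 and 0.024 and were not called.

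PRC1, which bundles the antiparallel microtubules of the midzone and recruits KIF4A there, rose as KIF4A did. It was at 308, 321 and 332 CPM at 0 h, 313, 343 and 319 at 1 h, 328, 345 and 350 at 2 h, and 352, 366 and 374 at 4 h. The ranges at 4 h and 0 h did not overlap, although the change was small (slope 0.048, adjusted p = 0.00318, edgeR). With library totals the slope was 0.0094 and no longer past the threshold (adjusted p = 0.562, edgeR), and with the GAPDH and ACTB scaling it was -0.089.

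Of the 4 cytokinesis genes, ARHGAP11A fell (slope -0.14, half-life 7.11 h). Its copy ARHGAP11B had 2.77% as many counts. ANLN (anillin), the scaffold of the contractile ring, was at 382, 396 and 380 CPM at 0 h, 383, 392 and 360 at 1 h, 400, 406 and 405 at 2 h, and 428, 444 and 412 at 4 h. Its rise was the smallest called (slope 0.043, adjusted p = 0.00728, edgeR). It was not past the threshold without replicate 1 (adjusted p = 0.0548, edgeR) or with library totals (adjusted p = 0.796, edgeR), and its slope was -0.095 with the GAPDH and ACTB scaling. ECT2, the exchange factor that switches on RHOA, had a slope of 0.019. RACGAP1, which anchors ECT2 and pairs with KIF23, had one of -0.038 and was not called, but it was lower with the replicate block (adjusted p = 0.0149, edgeR) and in DESeq2's Wald test (adjusted p = 0.048). KIF23 lay below RACGAP1 by 0.15 ± 0.013 log2 per hour in 3 of 3 replicates.

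Of the proliferation markers TOP2A and MKI67, 1 fell (MKI67). TOP2A, the topoisomerase that untangles sister chromatids, was at 252, 335 and 342 CPM at 0 h, 245, 326 and 326 at 1 h, 258, 340 and 346 at 2 h, and 263, 350 and 353 at 4 h. Replicate 1 was lowest at each time, by more than any time differed from another, and the slope of 0.020 was not called (adjusted p = 0.634, edgeR; 0.0493 with the replicate block). MKI67 (Ki-67), which coats mitotic chromosomes, was at 617, 480 and 611 CPM at 0 h, 555, 575 and 595 at 1 h, 585, 579 and 623 at 2 h, and 472, 500 and 482 at 4 h. Its slope of -0.059 was called (adjusted p = 0.0319, edgeR), but the 0 h library of replicate 2 lay within the 4 h range, and without replicate 1 the adjusted p was 0.235.

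**Figure D4:**
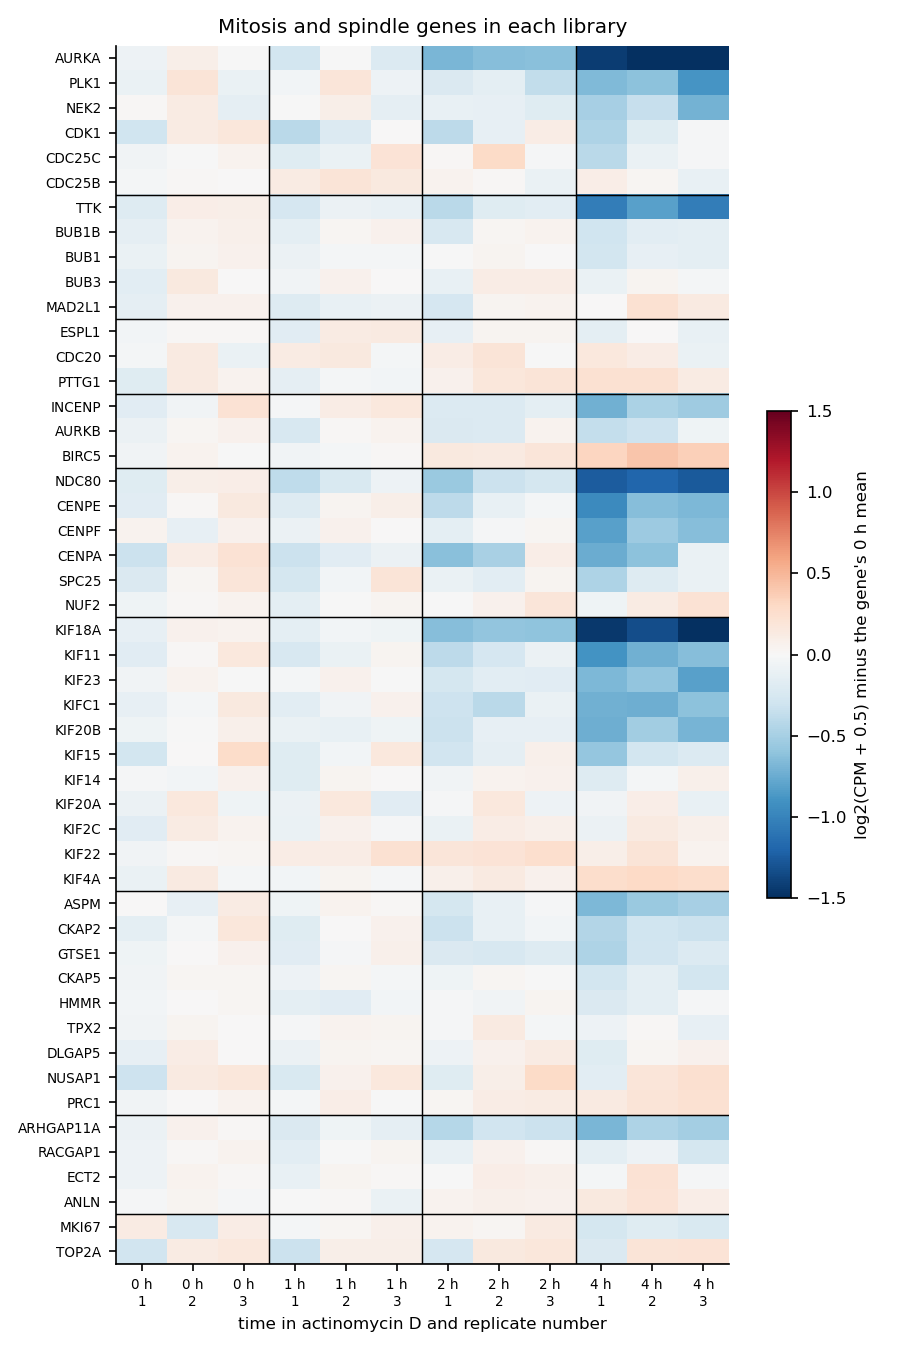
Colour gives log2(CPM + 0.5) minus the gene's mean at 0 h for each of the 49 genes (rows, by role) in each of the 12 libraries (columns, by time and replicate). Darker blue is lower, and AURKA, NDC80 and KIF18A are darkest at 4 h, while BIRC5 turns red.

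Replicate 1 ran low across these genes before the drug had acted. At 0 h it was the lowest of the 3 replicates in 41 of the 49 genes (83.7%), against 35.3% of all tested genes. It was the lowest at every time in 20 of them (40.8%), against 6.98% of all tested genes. CDK1 and TOP2A, given above, are among them. Same-numbered libraries moved together, so a slope whose call changed with the replicate number as a block is given with it.

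The direct contrast of 4 h with 0 h gave 21 members lower and 5 higher, where 31.6% of all tested genes were lower and 28.7% higher. The median change was -0.21 on the log2 scale, against 0.028 over all genes. AURKA and KIF18A changed by -1.59 and -1.497, NDC80 by -1.25 and TTK by -0.97. The 4 h libraries lay wholly below the 0 h libraries for 21 members and wholly above for 5, while 33.0% and 30.4% of all tested genes did so. With the replicate block, 28 members were lower and 7 higher, where 36.0% and 36.8% of all genes were.

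Few changes were called in the first hour. In the contrast of 1 h with 0 h, which uses the same 0 h libraries, edgeR called 0 members lower and 0 higher. Of all tested genes, 2.24% were lower and 0.349% higher. An unadjusted p below 0.05 (edgeR) was reached by 3 of the 49 members and by 1705 of all 12032 tested genes. DESeq2 also called 0 members, with 288 of all tested genes lower and 74 higher. With the replicate block 7 were lower (NDC80, CDK1, AURKA, TTK, ARHGAP11A, MAD2L1 and KIF11) and 2 were higher (CDC25B and KIF22), against 10.5% and 6.18% of all tested genes. The largest of these changes was that of NDC80, -0.23 on the log2 scale (adjusted p = 0.00302, edgeR with the block).

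Between 1 and 4 h, 19 members were lower and 6 higher, where 28.5% of all tested genes were lower and 25.4% higher. With the replicate block 29 were lower and 9 higher, against 32.9% and 35.5%. The members that fell changed by a median of -0.037 on the log2 scale from 0 to 1 h and -0.14 from 1 to 2 h, and then by -0.20 per hour from 2 to 4 h. For all genes that fell in the whole table these medians were -0.14, -0.28 and -0.20. By these medians most of the loss of the members that fell lay after 2 h, which was not tested. It did not hold for each of them, as ARHGAP11A, CENPA and GTSE1 lost more before 2 h. Fitted to 0, 1 and 2 h alone, 4 members fell (AURKA, KIF18A, NDC80 and ARHGAP11A) and 2 rose (BIRC5 and KIF22). Of the genes tested there, 30.4% were called in either direction.

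Whether the rate changed after the first hour was tested directly, as the change per hour from 1 to 4 h minus that from 0 to 1 h. Without the block, edgeR called 0 members in either direction, where 0.133% of all tested genes were lower and 0.0416% higher. An unadjusted p below 0.05 (edgeR) was reached by 9 of the 49 members and by 1332 of all 12032 tested genes. DESeq2 called 1 member lower, KIF18A (adjusted p = 0.0189), and 0 higher, where it called 0.781% of all tested genes lower and 0.166% higher. With the replicate block, the difference was below 0 by sign for 31 of the 49. It was called below 0 for 10 members, against 7.47% of all tested genes, and called above 0 for 3, against 5.39%. KIF18A changed its rate most, by -0.40 log2 per hour (adjusted p = 9.82e-05, edgeR with the block), followed by AURKA (-0.31, adjusted p = 0.00285, edgeR with the block) and INCENP (-0.30, adjusted p = 0.00278, edgeR with the block). PLK1, KIF23, CENPE, CENPF, CDC25B, ASPM and KIF22 were the others. Not all of these were falls that grew faster. CDC25B and KIF22 were higher at 1 h than at 0 h with the block, as given above, and KIF22 was not called between 1 and 4 h (-0.041 on the log2 scale, adjusted p = 0.416, edgeR with the block). The 3 in the opposite direction were MAD2L1, CDK1 and BIRC5.

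At 0 h the members' levels per kilobase of the GENCODE canonical transcript spread widely. CDC20 (134 ± 11.3 CPM per kilobase, SD with n = 3), PTTG1 (133 ± 14.9), CDK1 (124 ± 21.0) and CKAP5 (119 ± 3.55) were highest. In this order, each overlapped the next within their SDs. KIF15 (8.31 ± 1.57) and CDC25C (9.10 ± 0.339) were lowest and also overlapped. Slope went with no feature of the transcript strongly among the members: across the 49 genes Spearman's rho was -0.096 for transcript length, 0.19 for GC content, -0.093 for exon number and 0.14 for 3′ UTR length. Across the 10817 tested coding genes these were -0.25, 0.27, 0.21 and -0.27. The genes share the 12 libraries and their depth, so these are descriptions only.

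Related lists hold genes with steeper slopes than any of the 49, and are given here by their counts. Beside all of these counts stand the shares over all tested genes, of which 32.1% fell and 30.7% rose. Among 38 other centromere and kinetochore genes, 15 fell and 9 rose (median slope -0.0019), led by MAD2L1BP (-0.90), which removes MAD2 from its partners, and HJURP (-0.54), the chaperone of CENPA, with PMF1 (0.17) and CENPM (0.11) at the other end. Among 18 genes of the anaphase-promoting complex and its regulators, 4 fell and 7 rose (median 0.0081). Its inhibitor FBXO5 (EMI1) fell from 69.5 ± 8.05 to 4.40 ± 0.584 CPM (SD, n = 3), with a half-life of 0.930 h, and FZR1 (CDH1) followed (-0.22), while the subunits ANAPC15 (0.17) and ANAPC5 (0.16) rose.

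Cohesin and condensin genes fell in 10 of 19 cases and rose in 6 (median -0.046). WAPL, which releases cohesin, and CDCA5 (sororin), which protects it, fell with slopes of -0.45 and -0.22, and NCAPH2 (0.15) and SMC1A (0.12) rose. Of 35 centrosome and spindle assembly genes, 15 fell and 10 rose (median -0.012), from FAM83D (-0.69) and CDCA2 (-0.58) to HAUS5 (0.12) and TUBGCP6 (0.23).

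The G2/M regulators held the lowest median of these larger lists, -0.15, with 10 of 16 lower and 3 higher. HASPIN, the histone H3 kinase that places the chromosomal passenger complex, and WEE1, the brake on CDK1, fell with slopes of -0.86 and -0.54. ENSA and PKMYT1 rose, with slopes of 0.092 and 0.097. Among 21 FOXM1, B-MYB and DREAM regulators 11 fell and 4 rose (median -0.058). LIN54 (-0.48) and E2F3 (-0.43) fell, and the activators of mitotic genes MYBL2 (0.11) and FOXM1 (0.12) rose. The 48 DNA replication genes split evenly, with 20 lower and 19 higher (median 0.024), from DBF4 (-0.40) and CDT1 (-0.32) to TK1 (0.16) and LIG1 (0.17). These directions are relative to the TMM scaling, and differences between the lists, or from all tested genes, were not tested.

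**Figure D5:**
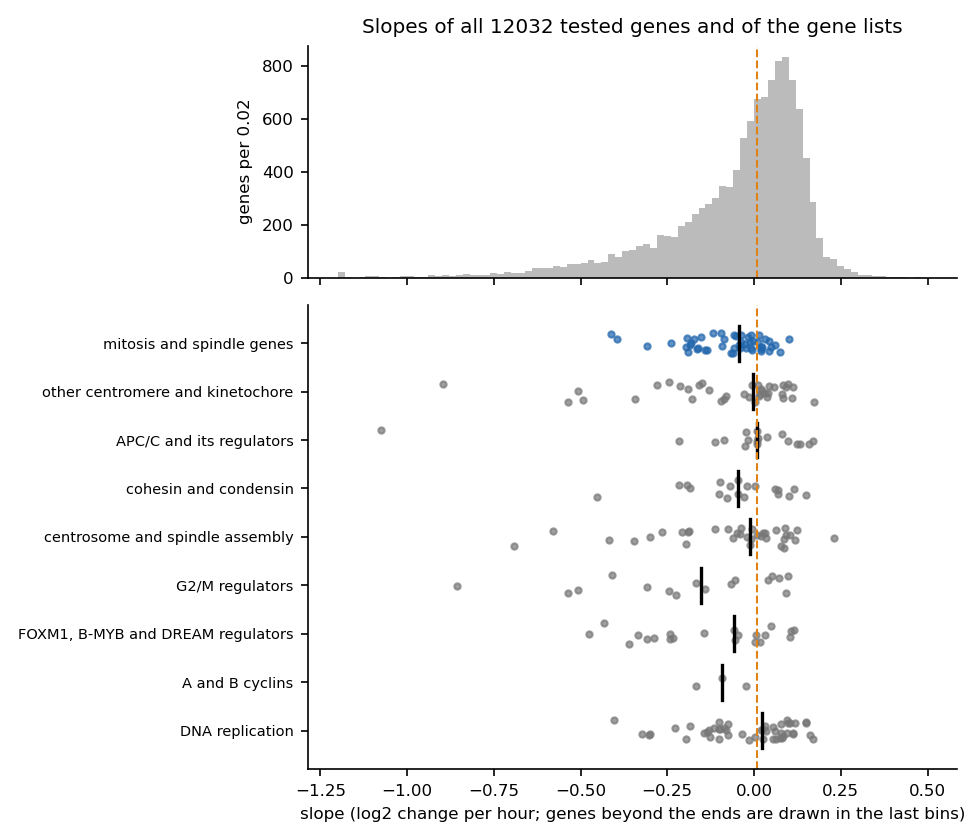
Top, the number of tested genes per 0.02 of slope (log2 change per hour) for all 12032 genes, with the median as a dashed line. Bottom, each gene of the 49 (blue) and of the related lists (grey) at its slope, with the list's median as a bar: the 49 lie at a median of -0.045, between the G2/M regulators at -0.15 and the DNA replication genes at 0.024.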

How the data were processed

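The table that the authors deposited holds raw read counts, 1 whole number for each gene symbol and library, from 12 TruSeq stranded poly(A) libraries. The submitters' processing notes name FastQC, STAR and the hg19 build; the counting tool and its strand setting are not given in the sources used here. Reads shared by copies or overlapping genes are therefore uncertain. Columns were matched to samples by title.

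The fits used edgeR 4.0.16 (R 4.3.3) on genes averaging 10 or more counts, with TMM factors, glmQLFit and glmQLFTest with time as a number (slope) or as 4 groups (contrasts), and Benjamini-Hochberg adjustment over 12032 genes. The common biological coefficient of variation was 0.0905. The steps were tested on simulated data. Replicate slopes are least squares on log2(CPM + 0.5). Coordinates, transcripts and 3′ UTR sequences are those of GENCODE 44 on GRCh38, matched by symbol, and promoters are from RefSeq; none of them is from the build the files were made with. Overlapping matches were counted.

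Replicates of one time differed beyond sampling noise (chi-square per degree of freedom 3.21 to 8.67 in 12 pairs). Deviations of same-numbered libraries from their time means correlated in all 18 pairs (0.323 to 0.633). For different numbers the mean was -0.224 over 36 pairs. The deviations at each time cancel out, so that negative mean follows from the positive one and adds nothing of its own. The numbers, taken from the labels, were used as pairing only in the replicate block, an alternative fit. The main slopes, half-lives and contrasts had no block.

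The 49 genes, the related lists and the rule for named genes were chosen with earlier results of these data known. That rule gives values in every library for the 6 lowest and 6 highest slopes and for AURKA, AURKB, PLK1, CDK1, CCNB1, BIRC5, TOP2A and MKI67, and the 2 lowest and 2 highest called genes of each related list. Alternatives were other scalings, DESeq2 1.42.0, other count minimums, a replicate block, leaving out libraries and other time points.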

Additional observations from a re-analysis of the deposited data

How the results depend on the processing

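Many calls changed with the time points. Fitted to 0, 1 and 2 h, 4 members fell and 2 rose (2215 and 1447 of all genes), and slopes changed sign for CDC25B (0.00661), CDC25C (0.0642), BUB1 (0.0167), BUB3 (0.0274), MAD2L1 (-0.0139), ESPL1 (0.00434), KIF14 (0.022), KIF20A (0.0204), TPX2 (0.0253), HMMR (0.00968), DLGAP5 (0.0286), CKAP5 (0.00337), RACGAP1 (0.00614) and MKI67 (0.044). Of these, BUB1, CKAP5 and MKI67 had been called. Fitted to 1, 2 and 4 h, CDC20 (-0.0143) and KIF22 (-0.0233) changed sign. These fits differ from the main fit both in the time points and in the smaller number of samples. The cause of the changes was not tested.

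The scaling shifts all genes together. With GAPDH and ACTB the median slope of all genes was -0.13, and 48 members fell and 0 rose. At 4 h against 0 h, 47 were lower and 0 higher (7612 and 111 of all genes). At 4 h against 1 h, 41 were lower and 0 higher (6333 and 18). Slopes changed sign for MAD2L1 (-0.0954), CDC20 (-0.129), PTTG1 (-0.0785), BIRC5 (-0.0369), NUF2 (-0.106), KIF22 (-0.117), KIF2C (-0.124), KIF4A (-0.0632), PRC1 (-0.0893), NUSAP1 (-0.113), ANLN (-0.0952), ECT2 (-0.119) and TOP2A (-0.117). Over all tested genes 7729 then fell and 112 rose. With library totals 4702 of all genes fell and 2244 rose; 31 members fell and 2 rose (KIF4A and BIRC5), 1 (BIRC5) was higher at 4 h than at 0 h (2121 of all genes), 29 were lower and 1 (BIRC5) higher at 4 h than at 1 h (4227 and 1496), 1 (KIF18A) had a lower rate after the first hour (102), and CDC20 (-0.0294), NUF2 (-0.0084), KIF22 (-0.0182), KIF2C (-0.0252), NUSAP1 (-0.0148), ECT2 (-0.0201) and TOP2A (-0.0189) changed sign.

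The replicate block gave 7 members lower and 2 higher at 1 h than at 0 h, 29 lower at 4 h than at 1 h, and 10 lower and 3 higher rates after the first hour; in the slope it added calls for SPC25, CDK1, RACGAP1, TOP2A and MAD2L1 and took none away. Over all genes it raised the calls at 1 h from 269 lower and 42 higher to 1261 and 744, and those of the change of rate from 16 lower and 5 higher to 899 and 648. DESeq2's Wald test gave 1 member (KIF18A) and 94 of all genes with a lower rate after the first hour. With no count filter, 3 members (PRC1, KIF4A and BIRC5) and 3341 of all genes were higher at 4 h than at 0 h.

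Leaving out single libraries or replicate numbers, 18 to 26 members fell and 3 to 6 rose (3468 to 3881 and 2968 to 3689 of all genes); 2 to 5 were higher at 4 h than at 0 h (2521 to 3467), and 2 to 7 at 4 h than at 1 h (2010 to 3072). Slopes that were not called passed 0 for CDC25B (-0.029 to 0.00241), BUB3 (-0.0216 to 0.00412), CDC20 (-0.00479 to 0.0303), KIF14 (-0.0208 to 0.00932), KIF20A (-0.0174 to 0.00938), DLGAP5 (-0.021 to 0.0124), ECT2 (-0.000474 to 0.0299) and TOP2A (-0.00038 to 0.0488). CENPA and CDC25C had the lowest counts in a single library (115 and 121), and whether depth limited their calls was not tested. With 3 replicates a slope near 0 that is not called is not shown to be level.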
